A study of Homo sapiens with 18 samples.

Results

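Claudins are the membrane-spanning proteins that make up the strands of tight junctions, and this account covers 8 of them: CLDN1, CLDN3, CLDN4, CLDN6, CLDN7, CLDN9, CLDN12 and CLDN23. They were taken by name from a table of 19759 named genes that holds 24 claudins. The choice was made with earlier results of these data known, so counts of members called are not those of an unbiased sample of claudins. A mean of at least 1 TPM (transcript abundance scaled to a fixed library total) over the 18 libraries was needed for a test, which 13079 genes reached. Of the members, 7 passed and CLDN9 did not, with a mean of 0.922 TPM over 18 libraries and 1.01 TPM over the 16 that remain without a skewed pair described further on. CLDN3 was just above the threshold, at 1.09 TPM.

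In epithelia, claudins of neighbouring cells bind each other across the gap and set which ions and solutes pass between cells. Some tighten the barrier and others form ion-selective pores, and most are tethered through their C-terminal end to scaffold proteins such as ZO-1. Epithelial and carcinoma cells express them in tissue-specific mixtures.

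RNA came from NCI-H211, a small cell lung cancer line of the tuft-cell-like subtype that depends on the transcription factor POU2F3, and every group carried Cas9. L191A cells stably expressed a guide-resistant POU2F3 cDNA with a leucine-to-alanine change, WT cells expressed the guide-resistant wild-type cDNA, and empty-vector cells carried no POU2F3 cDNA. Each line was infected with a lentivirus for a guide against the cell's own POU2F3 gene (sgPOU2F3) or for a control guide (sgRosa), and poly(A) RNA was extracted at day 5 of infection. With 3 infections per line and guide there are 6 groups and 18 libraries. Each cDNA is represented by 1 stable line, so p-values cover the spread between infections and not that between lines made anew, and a cDNA effect cannot be told apart from any other difference between these lines. In bulk RNA, fewer cells that express a gene and less RNA per cell cannot be told apart. Tests were made with limma on log2(TPM + 1), with Benjamini-Hochberg adjustment over all genes tested and calls at an adjusted p of 0.05. "Rose" and "fell" are used for calls only. A log2 difference on this scale understates the change of a gene at low TPM.

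TPM columns sum to the same total, so read depth is unknown. Replicate 1 of L191A sgRosa and replicate 1 of WT sgPOU2F3 stood apart, with median levels of 7.06 and 12.7 TPM over the genes tested, against 18.6 to 26.4 TPM in the other 16 libraries. Ribosomal protein genes held 37.6% and 32.4% of their TPM, against 15.6% to 26.2% in the others. Results are therefore given with 18 and with 16 libraries. POU2F3 itself, read with any cDNA counted in, averaged 646 ± 25.7 TPM under sgPOU2F3 and 675 ± 475 TPM under sgRosa in L191A cells (SD, n = 3 each). The L191A sgRosa and WT sgPOU2F3 values of POU2F3 and of the marker sums below include the skewed pair. With so wide an SD, these means do not show whether the guide changed POU2F3 RNA in L191A cells. In WT cells it averaged 1154 ± 114 TPM under sgPOU2F3, against 1792 ± 90.0 TPM under sgRosa. With the empty vector it averaged 281 ± 33.1 TPM under sgPOU2F3, against 729 ± 108 TPM under sgRosa. Of 8 tuft-type markers, POU2F3 included, 7 had a mean of at least 1 TPM, and their summed level was 722 to 952 TPM in empty-vector sgPOU2F3 and 1964 to 2503 TPM in empty-vector sgRosa libraries. It was 1715 to 2087 TPM in WT sgPOU2F3 and 3087 to 3166 TPM in WT sgRosa libraries, and 887 to 934 TPM in L191A sgPOU2F3 and 415 to 1646 TPM in L191A sgRosa libraries. The 5 endothelial markers stayed under 1 TPM in every library. Of 6 fibroblast and mesenchymal markers, 5 reached a mean of 1 TPM, and their sum was 19.7 to 26.1 TPM in empty-vector sgPOU2F3 and 5.15 to 6.53 TPM in empty-vector sgRosa libraries. That sum ran the other way in WT cells, at 6.44 to 9.06 TPM under sgPOU2F3 and 15.6 to 20.0 TPM under sgRosa, and overlapped in L191A cells, at 13.4 to 14.0 TPM under sgPOU2F3 and 9.08 to 14.4 TPM under sgRosa. Their part in the claudin differences was not tested.

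With 18 libraries, CLDN6 had the largest guide effect of the tested members in each line. It is a claudin of embryonic epithelia that is low in most adult tissues and reappears in some tumours. Empty-vector cells had 45.3, 41.9 and 41.4 TPM under sgPOU2F3, against 0.374, 0.236 and 0.381 TPM under sgRosa. The means of 42.9 ± 2.13 and 0.330 ± 0.0820 TPM (SD, n = 3 each) differ 129.8-fold, and the log2 difference was 5.04 (SE 0.18, limma adjusted p = 3.6e-11). L191A cells had 19.7, 17.2 and 14.0 TPM under sgPOU2F3, against 2.54, 1.89 and 3.66 TPM under sgRosa. That is a 6.30-fold ratio of means and a log2 difference of 2.30 (SE 0.18, limma adjusted p = 4.2e-07). WT cells had 1.03, 1.17 and 1.22 TPM under sgPOU2F3, against 0.160, 0.198 and 0.339 TPM under sgRosa, a 4.92-fold ratio of means. The groups are apart in all 3 lines, but the WT levels are near 1 TPM and its log2 difference was 0.80 (SE 0.18, limma adjusted p = 0.021). That WT call was lost with a pseudocount of 5 and when any 1 of 5 of the 6 WT libraries was left out, all except WT sgPOU2F3 replicate 3, with limma adjusted p from 0.00092 to 0.11 over the alternatives.

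The RefSeq promoter of CLDN6 (GRCh38.p14, chr16:3018134-3018433, minus strand, 250 bases before and 50 after the RefSeq start) is shown because this gene had the largest guide effect. Capitals mark its only match to the motifs searched, a CAGGTG E-box at bases 33 to 38 after the start.
CLDN6: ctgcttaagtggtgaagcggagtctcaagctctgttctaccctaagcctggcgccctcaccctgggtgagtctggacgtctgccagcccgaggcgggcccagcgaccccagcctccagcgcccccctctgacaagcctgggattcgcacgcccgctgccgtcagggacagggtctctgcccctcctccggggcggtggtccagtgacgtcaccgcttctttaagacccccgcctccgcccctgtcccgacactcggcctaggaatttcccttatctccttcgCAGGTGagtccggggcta
Both strands were searched for the POU octamer ATGCAAAT, the TEAD motif GGAATG, the AP-1 motif TGANTCA and the E-box CAGGTG. Among 35116 promoters of this length the octamer is in 1.77%, the TEAD motif in 14%, the AP-1 motif in 7.71% and the E-box in 20.6%. RefSeq promoters were matched for 6 of the 8 members, 7 windows in all, and none of the 7 holds the octamer or the TEAD motif.

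CLDN9, a close relative of CLDN6 known for the fluid barrier of the inner ear, lies next to it. On chromosome 16 of GRCh38, CLDN9 (3012456 to 3014505, plus strand, a single exon) and CLDN6 (3014712 to 3020071, minus strand) point at each other with 206 bases between them. Empty-vector cells had 3.0, 3.15 and 1.95 TPM of CLDN9 under sgPOU2F3, against 0, 0 and 0.0754 TPM under sgRosa. L191A cells had 2.44, 2.37 and 2.06 TPM under sgPOU2F3, against 0.146, 0.136 and 0.0672 TPM under sgRosa. WT cells had 0.262, 0.338 and 0.436 TPM under sgPOU2F3, against 0.0937, 0.0573 and 0 TPM under sgRosa. All of the sgPOU2F3 libraries were above all of the sgRosa libraries in each line, and only sgPOU2F3 libraries of the empty vector and of L191A exceeded 1 TPM. Without the filter on low values, which tests 18485 genes, CLDN9 rose in L191A cells (log2 difference 1.56, SE 0.11, limma adjusted p = 2.6e-07) and in empty-vector cells (1.84, SE 0.11, adjusted p = 1.3e-08), with 0.36 in WT cells (adjusted p = 0.052). In that fit 5.22%, 14.6% and 8.11% of all genes were called in the L191A, empty-vector and WT comparisons. Under sgPOU2F3, CLDN9 was higher in L191A than in WT cells (1.29, adjusted p = 1.2e-06, 11% of all genes called), lower in WT than in empty-vector cells (−1.45, adjusted p = 2.6e-07, 16.3% called), and differed by −0.15 between L191A and empty-vector cells (adjusted p = 0.66, 4.26% called), where the replicates overlap.

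CLDN6 and CLDN9 ran together over the libraries, with a Pearson r of 0.96 over the 16 libraries on the log2(TPM + 1) scale, which is a description of libraries that share lines and guides. Of the 31-base words in CLDN9 transcripts 2.57% occur also in CLDN6, and 16% of those in CLDN6 occur in other genes, 203 of 1736 words in AL353807.1 and 52 in CLDN9. The way reads of such shared words were split is not given in the sources used here. A TruSeq v2 library does not mark strand, so any overlap of the 3′ ends could not be separated by strand.

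CLDN1, a main barrier claudin of skin and other epithelia, differed between lines as much as between guides. Its gene is on chromosome 3 (190305701 to 190322475, minus strand, GRCh38). Empty-vector cells had 21.6, 20.6 and 22.2 TPM under sgPOU2F3, against 0.908, 0.721 and 0.668 TPM under sgRosa, a 28.1-fold ratio of means (log2 difference 3.67, SE 0.25, limma adjusted p = 3.5e-08). L191A cells had 33.5, 30.7 and 31.1 TPM under sgPOU2F3, against 3.76, 9.83 and 10.2 TPM under sgRosa, the lowest of these being the skewed library. The log2 difference was 1.98 (SE 0.25, limma adjusted p = 7.3e-05) with 18 libraries and 1.57 (SE 0.12, adjusted p = 8.7e-08) with 16. It was not called when only those 2 groups were fitted (adjusted p = 0.094, the highest over the alternatives, the lowest being 8.7e-08). WT cells had 16.8, 18.9 and 15.2 TPM under sgPOU2F3, against 28.3, 26 and 25.2 TPM under sgRosa. These WT groups are apart in the opposite direction, with a log2 difference of −0.62 that missed the threshold with 18 libraries (SE 0.25, limma adjusted p = 0.094) and passed it with 16 (−0.61, SE 0.12, adjusted p = 0.0034) or without L191A sgRosa replicate 1 alone, while its adjusted p ran from 0.0016 to 0.74 over the alternatives. The median of all genes in WT cells was −0.42 with 18 and −0.26 with 16 libraries.

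In order of its mean, CLDN1 stood highest in L191A sgPOU2F3, then in WT sgRosa, empty-vector sgPOU2F3, WT sgPOU2F3, L191A sgRosa and empty-vector sgRosa cells, and no neighbours in that order overlap. Under sgRosa, where the cell's own POU2F3 was not targeted, CLDN1 was at 7.92 ± 3.61 TPM in L191A, 26.5 ± 1.61 TPM in WT and 0.766 ± 0.126 TPM in empty-vector cells (SD, n = 3 each). It was higher than in the empty vector in L191A (log2 difference 2.24, SE 0.25, limma adjusted p = 2.2e-05) and in WT cells (3.96, SE 0.25, adjusted p = 6.3e-08), and lower in L191A than in WT cells (−1.72, SE 0.25, adjusted p = 0.00013). CLDN1 was the only member called higher in WT than in empty-vector cells under sgRosa, with 18 and with 16 libraries.

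The promoter of CLDN1 (RefSeq, GRCh38.p14, chr3:190322397-190322696, minus strand) holds none of the motifs searched and has no capitals. In GENCODE, 65 bases separate the gene from CLDN16, a kidney claudin on the plus strand (190322541 to 190412143).
CLDN1: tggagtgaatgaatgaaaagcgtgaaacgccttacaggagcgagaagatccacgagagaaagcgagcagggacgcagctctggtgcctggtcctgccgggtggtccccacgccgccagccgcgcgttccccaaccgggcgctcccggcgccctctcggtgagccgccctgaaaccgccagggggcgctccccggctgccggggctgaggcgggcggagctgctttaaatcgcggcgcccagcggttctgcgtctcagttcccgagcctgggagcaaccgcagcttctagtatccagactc
CLDN16 stayed at or below 0.337 TPM in all libraries, so the range of CLDN1 was not seen in its divergent neighbour.

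**Figure D1:**
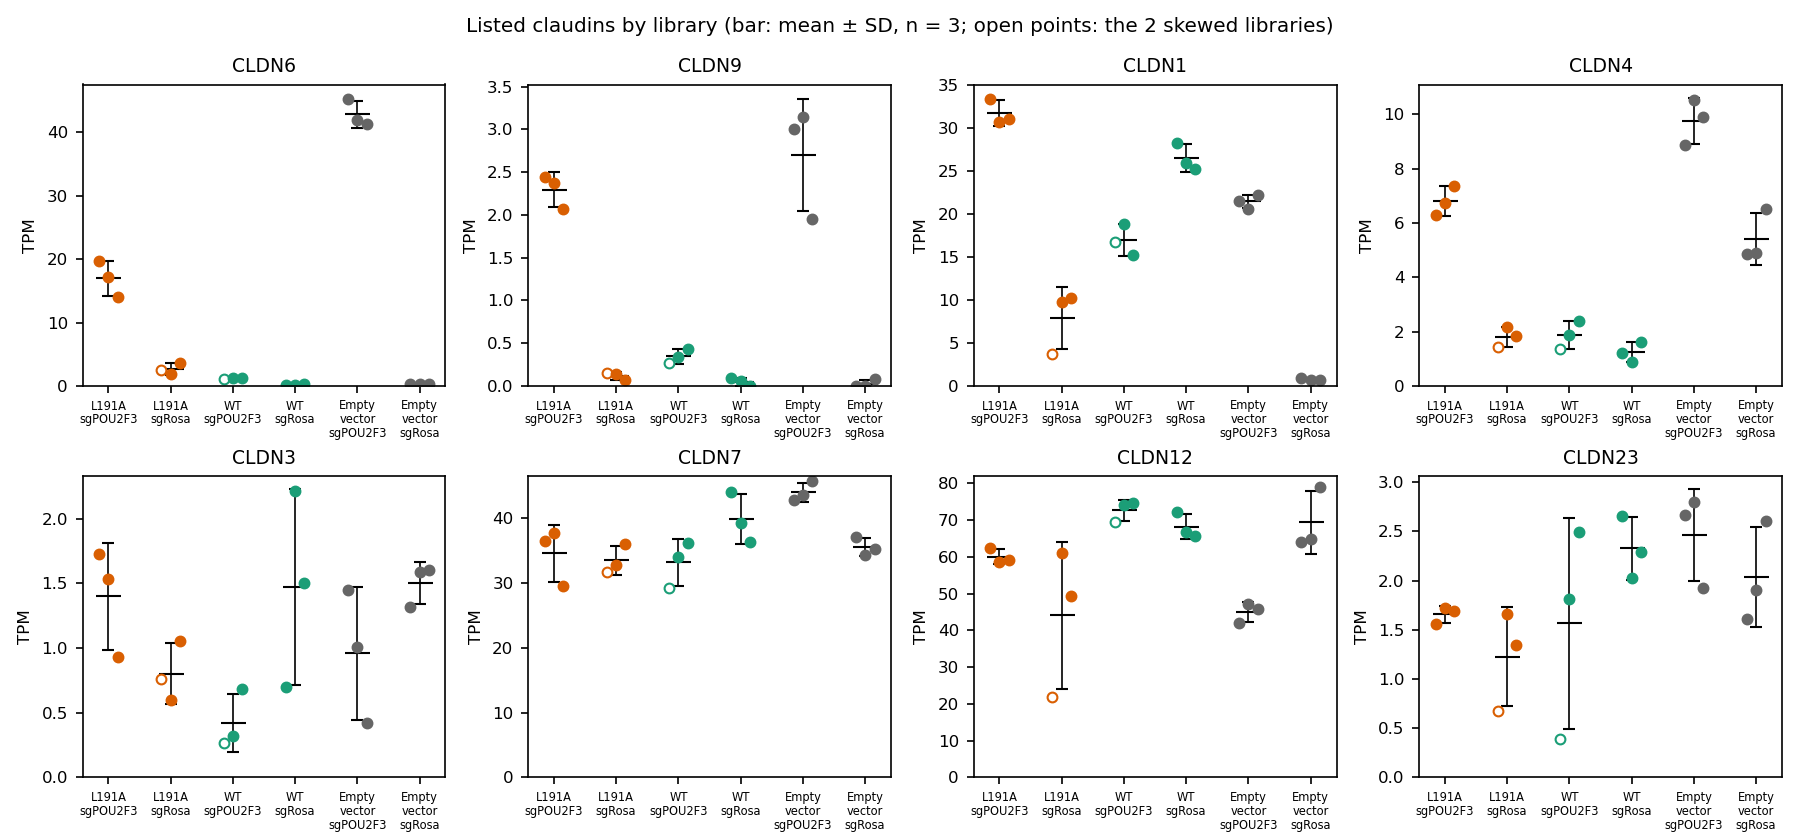
TPM of the 8 members in each library, by line and guide. Points are libraries, open points are the skewed pair, and bars are the mean and SD of 3 libraries. CLDN6 and CLDN9 are highest in empty-vector and L191A cells under sgPOU2F3, CLDN1 is low in empty-vector sgRosa and L191A sgRosa cells, and CLDN3, CLDN7 and CLDN23 overlap between neighbouring groups.

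CLDN4 and CLDN3, both receptors of the Clostridium perfringens enterotoxin, are neighbours on chromosome 7 of GRCh38, with CLDN3 at 73768997 to 73770270 (minus strand, 1 exon) and CLDN4 at 73799542 to 73832693 (plus strand), 29271 bases apart. CLDN4 rose in 2 lines under sgPOU2F3. L191A cells had 6.29, 6.73 and 7.38 TPM under sgPOU2F3, against 1.42, 2.17 and 1.84 TPM under sgRosa (log2 difference 1.48, SE 0.18, limma adjusted p = 5.3e-05). Empty-vector cells had 8.86, 10.5 and 9.90 TPM under sgPOU2F3, against 4.86, 4.88 and 6.50 TPM under sgRosa (0.75, SE 0.18, adjusted p = 0.0091). Neither pair of groups overlaps. WT cells had 1.37, 1.87 and 2.39 TPM under sgPOU2F3, against 1.23, 0.880 and 1.61 TPM under sgRosa, which overlap (0.36, SE 0.18, adjusted p = 0.15, and 0.49, adjusted p = 0.033, with 16 libraries). Its adjusted p in WT cells ran from 0.0070 to 0.38 over the alternatives. With sgRosa alone, CLDN4 was below the empty vector in L191A (−1.19, SE 0.18, limma adjusted p = 0.00041) and in WT cells (−1.52, SE 0.18, adjusted p = 5.2e-05). The L191A difference was not called when only the 2 groups were fitted or after correction for GENCODE transcript length, and its adjusted p ran from 0.00014 to 0.16 over the alternatives.

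The promoter of CLDN4 (RefSeq, GRCh38.p14, chr7:73830746-73831045, plus strand) is the only one of the 7 windows with an AP-1 motif. It holds 2 matches to TGANTCA, in capitals, at bases −242 to −236 and −161 to −155 from the start.
CLDN4: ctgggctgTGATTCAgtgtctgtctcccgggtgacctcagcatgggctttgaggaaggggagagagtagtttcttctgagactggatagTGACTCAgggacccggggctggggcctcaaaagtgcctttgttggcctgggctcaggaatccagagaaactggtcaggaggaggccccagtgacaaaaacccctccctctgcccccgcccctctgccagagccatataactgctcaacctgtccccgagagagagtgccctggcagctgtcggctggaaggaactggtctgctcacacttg
These are matches of letters and say nothing of whether a factor binds there.

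CLDN3 did not follow CLDN4. L191A cells had 1.73, 1.53 and 0.934 TPM under sgPOU2F3, against 0.759, 0.595 and 1.05 TPM under sgRosa. WT cells had 0.265, 0.323 and 0.680 TPM under sgPOU2F3, against 0.695, 2.21 and 1.5 TPM under sgRosa. Empty-vector cells had 1.44, 1.01 and 0.422 TPM under sgPOU2F3, against 1.31, 1.59 and 1.60 TPM under sgRosa. No guide comparison of CLDN3 was called with 18 libraries, with log2 differences of 0.40 in L191A (limma adjusted p = 0.28), −0.76 in WT (0.057) and −0.39 in empty-vector cells (0.30). The WT groups are apart, and their difference was called with a pseudocount of 5, without L191A sgRosa replicate 1 and without WT sgPOU2F3 replicate 3, with adjusted p from 0.015 to 0.27 over the alternatives. Across the 16 libraries, CLDN3 and CLDN4 had a Pearson r of 0.07. The genes share 41 of their 31-base words, which are 3.30% of those in CLDN3.

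**Figure D2:**
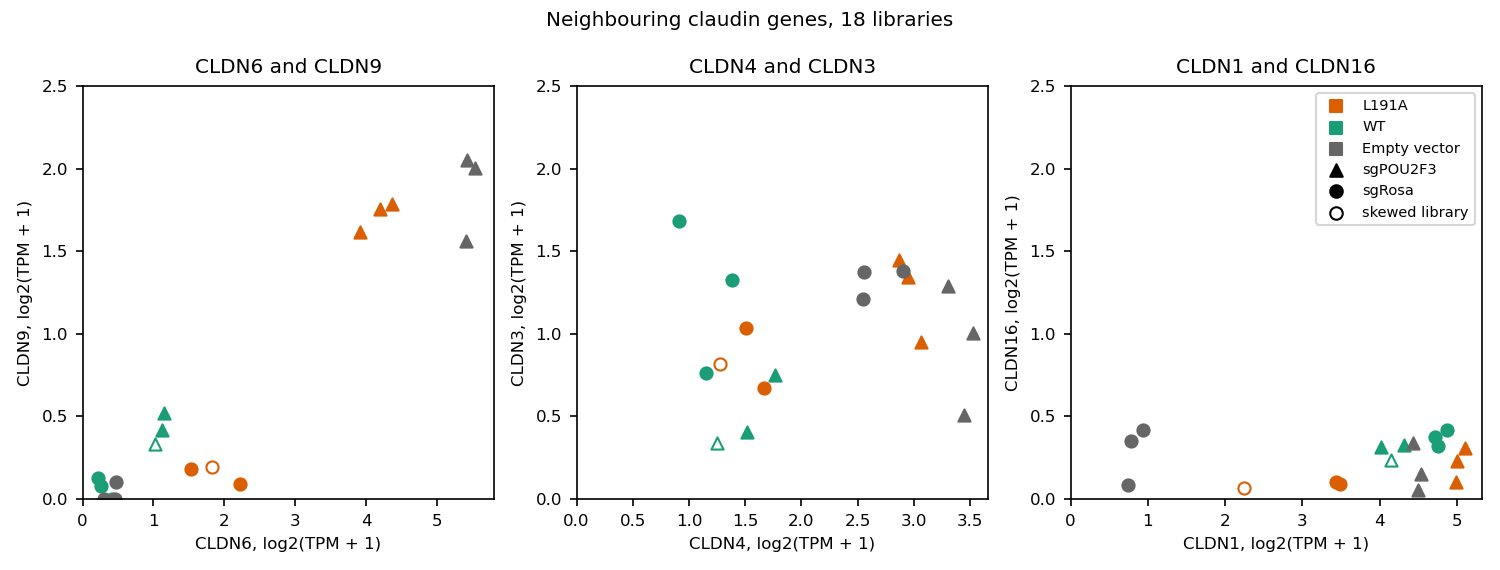
Log2(TPM + 1) of each pair of neighbouring claudin genes in 18 libraries; triangles are sgPOU2F3, circles sgRosa, colours the lines and open symbols the skewed pair. CLDN6 and CLDN9 are high together in L191A and empty-vector sgPOU2F3 libraries, CLDN4 and CLDN3 show no common order, and CLDN16 stays low at every level of CLDN1.

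CLDN7 and CLDN12 were the most abundant members, and no guide effect on either was called with 18 libraries. CLDN7, which binds EpCAM at the lateral membrane, is on chromosome 17 (7259903 to 7263983, minus strand). L191A cells had 36.4, 37.7 and 29.6 TPM under sgPOU2F3, against 31.6, 32.8 and 36.0 TPM under sgRosa. WT cells had 29.2, 34 and 36.1 TPM under sgPOU2F3, against 43.9, 39.3 and 36.3 TPM under sgRosa. Empty-vector cells had 42.8, 43.5 and 45.6 TPM under sgPOU2F3, against 37.1, 34.3 and 35.2 TPM under sgRosa. The empty-vector groups are apart, by a log2 difference of 0.30 that missed the threshold with 18 libraries (SE 0.14, limma adjusted p = 0.15). It passed with 16 (SE 0.10, adjusted p = 0.018), without L191A sgRosa replicate 1 alone and with either correction for transcript length. The adjusted p ran from 0.018 to 0.33 over the alternatives. Under sgPOU2F3, CLDN7 was lower in WT than in empty-vector cells (−0.40, SE 0.14, adjusted p = 0.047), a call near the threshold. The call was lost when any 1 of the WT sgRosa, empty-vector sgPOU2F3 or empty-vector sgRosa libraries or replicate 1 or 2 of WT or L191A sgPOU2F3 was left out. It was also lost under either scaling, with the replicate number as a block and with either correction for transcript length. The limma adjusted p ran from 0.0079 to 0.55. One of its 2 RefSeq promoter windows holds 5 E-boxes and the other none.

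CLDN12, an atypical claudin without the usual scaffold-binding end, lies on chromosome 7 (90383721 to 90513402, plus strand). L191A cells had 62.4, 58.7 and 59.1 TPM under sgPOU2F3, against 21.9, 61.0 and 49.3 TPM under sgRosa, the lowest being the skewed library. WT cells had 69.3, 74.1 and 74.5 TPM under sgPOU2F3, against 72.1, 66.7 and 65.8 TPM under sgRosa. Empty-vector cells had 41.9, 47.3 and 45.8 TPM under sgPOU2F3, against 64.0, 64.9 and 79.1 TPM under sgRosa, which are apart. There the log2 difference was −0.61, not called with 18 libraries (SE 0.25, limma adjusted p = 0.11) and called with 16 (SE 0.10, adjusted p = 9.3e-05), with adjusted p up to 0.33 over the alternatives. The call was also made without L191A sgRosa replicate 1 alone, with only the groups compared, under either scaling and with either correction for transcript length. Of its 31-base words 15.1% occur in other genes, of which 319 of 1051 in GTPBP10.

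CLDN23, a single-exon claudin on chromosome 8 (8701938 to 8704106, plus strand), was low in every group. Its highest mean was 2.46 ± 0.472 TPM in empty-vector sgPOU2F3 and its lowest 1.22 ± 0.503 TPM in L191A sgRosa cells (SD, n = 3 each), and neighbours in the order of means overlap. The skewed libraries were its lowest, at 0.392 and 0.672 TPM. No comparison of CLDN23 was called with 18 libraries, and with 16 it was lower in L191A than in WT cells under sgRosa (log2 difference −0.41, SE 0.17, limma adjusted p = 0.0495, and 0.014 to 0.87 over the alternatives).

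The sgPOU2F3 effect was then counted over the 7 members tested. In empty-vector cells 3 rose (CLDN1, CLDN4 and CLDN6) and none fell, beside 17.5% of all 13079 genes called, of which 1040 were higher and 1244 lower. The median log2 difference was 0.30 over the members and −0.13 over all genes. With 16 libraries 4 rose and 1 fell, where 51.7% of all genes were called. In L191A cells the same 3 rose and none fell, beside 5.99% of all genes called (710 higher, 74 lower), with a median of 0.56 over the members and 0.33 over all genes. With 16 libraries CLDN1, CLDN4 and CLDN6 rose again, where 10.7% of all genes were called and the median of all genes was 0.01. In WT cells CLDN6 rose, 1 of 7, beside 6.82% of all genes called (205 higher, 687 lower), with medians of −0.26 over the members and −0.42 over all genes. With 16 libraries CLDN4 and CLDN6 rose and CLDN1 fell, where 36.1% of all genes were called.

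**Figure D3:**
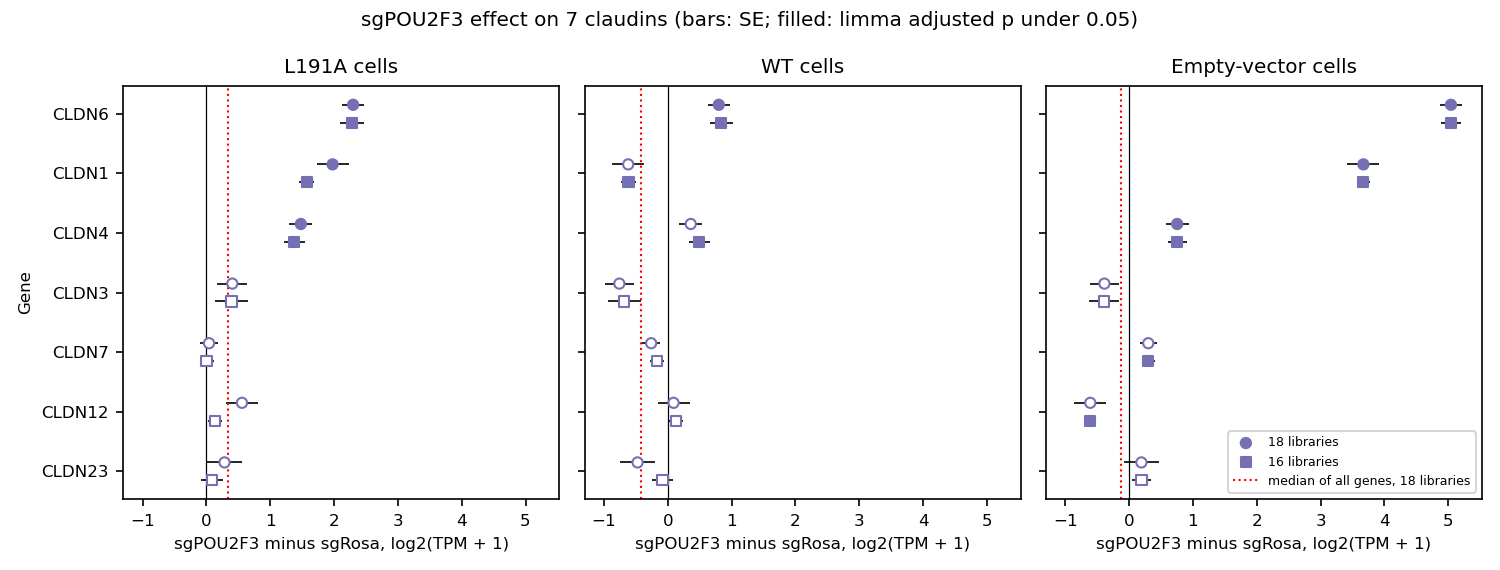
Log2 difference of sgPOU2F3 minus sgRosa for the 7 members tested in L191A, WT and empty-vector cells, with 18 libraries (circles) and 16 (squares); bars are the SE, filled symbols passed an adjusted p of 0.05 in limma and the dotted line is the median of all genes. CLDN6, CLDN1 and CLDN4 are filled and above 0 in L191A and empty-vector cells, and CLDN6 alone is filled with 18 libraries in WT cells.

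The lines were compared under sgPOU2F3, where the cDNA is the guide-resistant source of POU2F3. Mean POU2F3 RNA there was lower in L191A than in WT cells, as given above, and its part in these differences was not tested. Between L191A and WT cells, whose cDNAs differ by the leucine-to-alanine change, CLDN6 was at 17.0 ± 2.81 TPM in L191A and 1.14 ± 0.0999 TPM in WT cells (SD, n = 3 each), a log2 difference of 3.06 (SE 0.18, limma adjusted p = 2.7e-08). CLDN4 was at 6.80 ± 0.547 TPM in L191A and 1.88 ± 0.510 TPM in WT cells (1.45, SE 0.18, adjusted p = 5.0e-05). CLDN1 was also higher in L191A than in WT cells (0.87, SE 0.25, adjusted p = 0.030), a call lost when any 1 of the 6 libraries of these groups was left out and kept with 16 libraries (adjusted p = 3.0e-05), with adjusted p from 1.8e-05 to 0.11 over the alternatives. CLDN3 was higher by 0.75 (adjusted p = 0.044) and missed the threshold with 16 libraries (0.67, adjusted p = 0.055), without replicate 1 or 2 of L191A or WT sgPOU2F3 and without any 1 empty-vector sgRosa library, among others, with adjusted p from 0.016 to 0.17. Thus 4 of 7 members were higher and none lower, beside 13.5% of all genes called and a median of 0.14 over all genes. With 16 libraries 3 were higher and CLDN12 lower, where 37.4% of all genes were called.

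Against the empty vector under sgPOU2F3, WT cells were lower in CLDN6 (log2 difference −4.36, SE 0.18, limma adjusted p = 7.8e-10), CLDN4 (−1.92, SE 0.18, adjusted p = 2.0e-06) and CLDN7, 3 of 7 members, with none higher, beside 20.6% of all genes called. With 16 libraries 5 members were called, where 43.6% of all genes were. CLDN12 was then higher in WT cells (0.71, limma adjusted p = 7.6e-05), as it was with either correction for transcript length, and CLDN1 was lower (−0.32, adjusted p = 0.033). L191A cells were lower than the empty vector in CLDN6 (−1.30, SE 0.18, adjusted p = 0.00022), 1 of 7 members, beside 3.78% of all genes called. The L191A libraries lay at 14.0 to 19.7 TPM, all below the empty-vector libraries at 41.4 to 45.3 TPM. With 16 libraries 5 members were called, where 22.9% of all genes were, with CLDN4 at −0.46 (adjusted p = 0.033), CLDN1 at 0.54 (adjusted p = 0.0015) and CLDN6 at −1.30. The others were CLDN12 at 0.41 (limma adjusted p = 0.0061) and CLDN7 at −0.35 (adjusted p = 0.019). Over the alternatives the adjusted p of CLDN4 ran from 0.033 to 0.62 and that of CLDN1 from 0.0015 to 0.72.

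Under sgRosa, L191A cells were higher than WT cells in CLDN6 (log2 difference 1.56, SE 0.18, limma adjusted p = 1.6e-05), with 2.70 ± 0.894 TPM in L191A, against 0.232 ± 0.0946 TPM in WT and 0.330 ± 0.0820 TPM in empty-vector cells (SD, n = 3 each). They were lower in CLDN1 and in CLDN12 (−0.74, adjusted p = 0.024), so 3 of 7 members were called, beside 55.8% of all genes, and 5 with 16 libraries, beside 58.2%. The CLDN12 value was −0.31 with 16 libraries (adjusted p = 0.023). Its call was lost under median-ratio or quantile scaling, with either correction for transcript length and without WT sgRosa replicate 1. The limma adjusted p of this CLDN12 difference ran from 0.0026 to 0.99 over the alternatives. Against the empty vector, L191A cells had 4 of 7 members called, beside 36.0% of all genes called, and 4 with 16 libraries, beside 39.2%. CLDN1 and CLDN6 (1.45, SE 0.18, adjusted p = 5.0e-05) were higher and CLDN4 and CLDN12 lower. CLDN12 differed by −0.75 (adjusted p = 0.033) with 18 libraries and by −0.33 (adjusted p = 0.025) with 16. Settings that lost this CLDN12 call included either correction for transcript length and leaving out any 1 empty-vector sgRosa library. Its limma adjusted p ran from 0.0041 to 0.43 over the alternatives. The median of all genes was −0.67 for L191A against WT and −0.56 for L191A against the empty vector, so CLDN6, and CLDN1 against the empty vector, ran against that shift, while the CLDN12 differences were near it. WT cells had CLDN1 higher and CLDN4 lower than the empty vector, 2 of 7 members, beside 7.2% of all genes called, and the same count with 16 libraries, beside 34.3%.

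Whether the guide effect differed between lines was tested directly. The effect in WT cells was smaller than that in empty-vector cells for CLDN1 (difference of log2 differences −4.29, SE 0.35, limma adjusted p = 1.8e-06) and CLDN6 (−4.24, SE 0.25, adjusted p = 1.2e-07), 2 of 7 members, beside 6.99% of all genes called, and 4 with 16 libraries, beside 26.7%. The members added with 16 libraries were CLDN7 (−0.48, adjusted p = 0.026) and CLDN12 (0.73, adjusted p = 0.0017). CLDN12 was also called with either correction for transcript length. The effect in L191A cells was also smaller than in empty-vector cells for CLDN1 (−1.70, adjusted p = 0.012) and CLDN6 (−2.75, adjusted p = 1.3e-05), 2 of 7, beside 6.08% of all genes called, and 3 with 16 libraries, beside 23.3%. For CLDN1 the adjusted p of this difference was 4.3e-07 with 16 libraries and ran to 0.097 over the alternatives. CLDN12 was called for it with 16 libraries (0.74, limma adjusted p = 0.0023) and with either correction for transcript length. The effect in L191A cells was larger than in WT cells for CLDN1 (2.60, adjusted p = 0.00052), CLDN6 (1.5, adjusted p = 0.0023), CLDN3 (1.16, adjusted p = 0.039) and CLDN4 (1.12, adjusted p = 0.017), 4 of 7, beside 11.7% of all genes called. With 16 libraries 3 were called, beside 13.2%, and CLDN3 was not (1.07, adjusted p = 0.065, and 0.022 to 0.20 over the alternatives). The median of all genes was 0.79 in this contrast with 18 libraries and 0.28 with 16. The CLDN6 difference depended on scale: with a pseudocount of 0.1, median-ratio scaling or quantile normalization it was not called, and its adjusted p ran from 4.0e-05 to 0.14. The CLDN4 difference was not called under these 3 settings either, nor with only the groups compared or the GENCODE length correction, with adjusted p from 0.0035 to 0.99.

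For CLDN9, without the filter, the effect in WT cells was smaller than in empty-vector cells (−1.48, limma adjusted p = 2.0e-05, 6.26% of all genes called) and the effect in L191A cells larger than in WT cells (1.20, adjusted p = 0.00028, 9.96% called). The L191A and empty-vector effects differed by −0.28 (adjusted p = 0.26, 5.43% of all genes called).

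The mix of claudin RNA changed with these genes. Summed over 24 claudins, the level was 216 ± 16.5 TPM in L191A sgPOU2F3 and 132 ± 39.1 TPM in L191A sgRosa cells, 198 ± 8.51 TPM in WT sgPOU2F3 and 221 ± 10.8 TPM in WT sgRosa cells, and 239 ± 6.58 TPM in empty-vector sgPOU2F3 and 182 ± 12.1 TPM in empty-vector sgRosa cells (SD, n = 3 each). These sums and the shares below include the skewed pair. L191A sgRosa libraries ran from 88.0 to 162 TPM, the lowest being the skewed library. CLDN6 made up 17.9% of this sum in empty-vector sgPOU2F3 cells, against 0.181% under sgRosa. In L191A cells its share was 7.81% under sgPOU2F3, against 2.18% under sgRosa, and in WT cells 0.578% under sgPOU2F3, against 0.106% under sgRosa. The CLDN12 share was 18.8% in empty-vector sgPOU2F3 cells, against 37.9% under sgRosa. It was 27.9% under sgPOU2F3, against 32.0% under sgRosa, in L191A cells, and 36.8% under sgPOU2F3, against 30.8% under sgRosa, in WT cells.

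**Figure D4:**
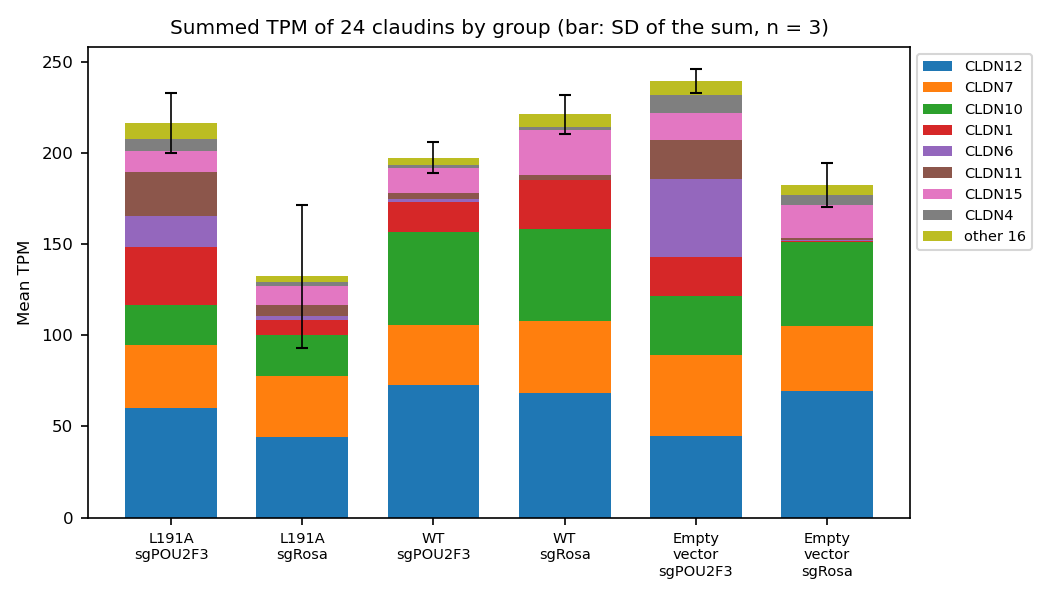
Mean TPM of the claudins stacked by group, with the SD of the sum over 3 libraries; the skewed pair is included. CLDN6, CLDN11 and CLDN1 take a visible part of the bar in L191A and empty-vector sgPOU2F3 cells and next to none in empty-vector sgRosa cells. CLDN1 also takes a visible part in WT cells, at 26.5 TPM under sgRosa and 17.0 TPM under sgPOU2F3.

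Of the 16 other claudins, 3 passed the filter: CLDN10 and CLDN15, both ion-pore claudins, and CLDN11, the claudin of myelin and of the Sertoli cell barrier. CLDN11 was high under sgPOU2F3 in L191A and empty-vector cells and low in the other groups. L191A cells had 27.9, 29 and 16.2 TPM under sgPOU2F3, against 3.51, 6.59 and 7.61 TPM under sgRosa (log2 difference 1.89, SE 0.31, limma adjusted p = 0.0011). Empty-vector cells had 22.4, 21.5 and 20.4 TPM under sgPOU2F3, against 1.41, 1.00 and 1.61 TPM under sgRosa (3.27, SE 0.31, adjusted p = 1.8e-06). WT cells had 2.62, 2.55 and 5.21 TPM under sgPOU2F3, against 3.92, 2.26 and 1.46 TPM under sgRosa, which overlap (0.34, adjusted p = 0.40). Neither CLDN10 nor CLDN15 was called for a guide effect with 18 libraries, and with 16 CLDN10 fell in empty-vector cells (−0.49, adjusted p = 0.00033).

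Other parts of the junction were counted from lists. Of 9 tested membrane proteins of the tight junction besides claudins, 2 rose under sgPOU2F3 in empty-vector cells, where 17.5% of all genes were called: LSR, of tricellular contacts (log2 difference 0.99, limma adjusted p = 0.0051), and the adhesion molecule ESAM (0.82, adjusted p = 0.0091). None was called in L191A or WT cells, and with 16 libraries 2 fell in WT cells and 2 rose and 3 fell in empty-vector cells. OCLN, the gene of occludin, was not called for the guide in any line with 18 libraries. Of 18 scaffold and polarity genes, 1 fell in empty-vector cells, CGNL1 (paracingulin, −1.43, adjusted p = 0.00026), 2 fell in WT cells, CGNL1 (−0.93, adjusted p = 0.029) and PRKCZ (−1.15, adjusted p = 0.049), and none was called in L191A cells. With 16 libraries 1 fell in L191A, 10 in WT and 7 in empty-vector cells, where 10.7%, 36.1% and 51.7% of all genes were called in the same lines. With 18 libraries these shares were 5.99%, 6.82% and 17.5%, which stand beside both lists. The median over these scaffolds was 0.71 in L191A, −0.73 in WT and −0.28 in empty-vector cells, beside 0.33, −0.42 and −0.13 over all genes.

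Among genes of the EpCAM family and the matriptase system, which regulate CLDN7 and CLDN1 at the membrane, SPINT1, a matriptase inhibitor, rose in L191A (log2 difference 0.92, limma adjusted p = 0.025) and empty-vector cells (0.71, adjusted p = 0.044). PRSS8, the protease prostasin, fell in WT (−0.82, adjusted p = 0.044) and empty-vector cells (−1.45, adjusted p = 0.00029). EPCAM stayed between 711 and 1171 TPM in all libraries and was not called for the guide in any line. Of all genes, 5.99% were called in L191A, 6.82% in WT and 17.5% in empty-vector cells with 18 libraries. Calls of this list with 16 libraries are not reported here. Of 16 adherens junction and desmosome genes, 5 rose in L191A cells, where 5.99% of all genes were called, among them NECTIN2 (1.91, adjusted p = 2.6e-05), CDH1, the gene of E-cadherin (2.09, adjusted p = 0.0031), CDH3 (1.25, adjusted p = 0.014) and PPL (1.51, adjusted p = 0.032). In empty-vector cells NECTIN2 alone of the 16 rose (3.12, adjusted p = 4.8e-08), and in WT cells none was called. With 16 libraries 6 rose in L191A cells, 9 fell in WT cells, and 3 rose and 4 fell in empty-vector cells, beside 10.7%, 36.1% and 51.7% of all genes called in these lines.

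Among 9 epithelial regulators, KLF5 rose in L191A cells (log2 difference 2.04, limma adjusted p = 0.010), ELF3 rose in WT cells (1.02, adjusted p = 0.021) and KLF4 fell in empty-vector cells (−0.90, adjusted p = 0.037). Among 4 tested transcription factors of epithelial-mesenchymal transition, SNAI2, the gene of SLUG, a repressor of claudin genes in cell models, rose together with CLDN1, CLDN4 and CLDN6 in L191A (2.19, adjusted p = 8.8e-05) and empty-vector cells (3.70, adjusted p = 1.3e-07). It averaged 13.9 ± 2.01 TPM under sgPOU2F3 and 2.51 ± 1.63 TPM under sgRosa in L191A cells, and 40.1 ± 2.29 TPM under sgPOU2F3 and 2.16 ± 0.197 TPM under sgRosa in empty-vector cells (SD, n = 3 each). TWIST1 fell in WT (−1.28, adjusted p = 0.034) and empty-vector cells (−1.76, adjusted p = 0.0010). Beside both lists, 5.99% of all genes were called in L191A, 6.82% in WT and 17.5% in empty-vector cells with 18 libraries. Their calls with 16 libraries are not reported here.

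The genes most like a member were taken by Pearson r of log2(TPM + 1) over the 16 libraries among 10561 genes, for the members with a mean of at least 5 TPM. For CLDN6 they were NUAK2, SERPINB7 and PLAU, each with r = 0.99 (and 0.98, 0.98 and 0.99 over 18). For CLDN1 they were CORO1C, KIAA0040 and RHBDD2, with r of 0.94, 0.93 and 0.93, of which RHBDD2 kept 0.92 over 18 libraries while CORO1C had 0.69 and KIAA0040 0.75. For CLDN7 they included PPP4C (0.89) and MCUR1 (0.88), and for CLDN12 they were LMBRD1 (0.95), TRIQK (0.94) and LGSN (0.94). Between members, CLDN4 had r = 0.76 with both CLDN6 and CLDN9, CLDN1 had 0.49 with CLDN6, and CLDN12 had −0.81 with CLDN6. These values describe 6 groups of libraries that share lines and guides.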

How the data were processed

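Poly(A) RNA-seq of 18 NCI-H211 libraries in 6 groups of 3 was analysed, per the labels. TRIzol RNA went into TruSeq v2 libraries, per the labels' protocols. The deposited values are TPM, made by the authors with kallisto on hg38, per the submitters' processing notes, with version, transcript set and strandedness not given in the sources used here. Each column sums to 1000000, so depth and counting error are unknown. Of 19875 entries, 116 that named no gene (89 fragments of descriptions and 27 dates) were left out, with 1.38% to 2.05% of the TPM. Replicates are separate infections of 1 line.

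Group means of log2(TPM + 1) over all 18 libraries were fitted in limma 3.58.1 (R 4.3.3) with a variance trend, on the 13079 genes averaging 1 TPM or more, and 12 contrasts were tested two-sided at an adjusted p of 0.05. The fit was tested on simulated data. Same-numbered replicates had deviations that correlated by −0.58 to 0.59 (16 of 45 pairs over 0.1), so numbers were not taken as pairs. All members are named. Up to 4 called genes with the smallest p are named per list, and the 3 most correlated genes per member, some of which are not reported here. The members and lists were chosen with earlier results of these data known. Alternatives were pseudocounts of 0.1 and 5, quantile normalization, median-ratio scaling, no filter, a filter at a mean of 5 TPM, a replicate block, only the groups compared, 16 libraries and each library left out. Removal of the trend on transcript length (lowess, span 0.3), with GENCODE median or RefSeq-matched lengths, was added after seeing the data. Promoters came from RefSeq (GRCh38.p14), gene positions and 31-base words from GENCODE on GRCh38.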

Additional observations from a re-analysis of the deposited data

Results flagged for a closer look

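With 18 libraries, the sgPOU2F3 effect differed between lines, by a limma test of the difference itself, for CLDN1, CLDN3, CLDN4 and CLDN6. Beside them, 6.99%, 6.08% and 11.7% of all genes were called for WT against the empty vector, L191A against the empty vector and L191A against WT cells. With 16 libraries these shares were 26.7%, 23.3% and 13.2%, and CLDN3 was not called. CLDN12 then was, against empty-vector cells, by 0.73 in WT (limma adjusted p = 0.0017) and 0.74 in L191A cells (adjusted p = 0.0023). CLDN7 was also called then, by −0.48 for WT against empty-vector cells (adjusted p = 0.026). CLDN9 was tested only without the filter on low values. In that fit 6.26% of all genes were called for WT against the empty vector and 9.96% for L191A against WT cells. Against empty-vector cells, the effect in WT cells differed by −4.29 for CLDN1 (adjusted p = 1.8e-06), by −4.24 for CLDN6 (adjusted p = 1.2e-07) and, without the filter on low values, by −1.48 for CLDN9 (adjusted p = 2.0e-05), all on the log2(TPM + 1) scale. Against empty-vector cells, the effect in L191A cells differed by −1.70 for CLDN1 (adjusted p = 0.012) and −2.75 for CLDN6 (adjusted p = 1.3e-05). Against WT cells, the effect in L191A cells differed by 2.60 for CLDN1 (adjusted p = 0.00052), 1.16 for CLDN3 (adjusted p = 0.039), 1.12 for CLDN4 (adjusted p = 0.017), 1.5 for CLDN6 (adjusted p = 0.0023) and, without the filter, 1.20 for CLDN9 (adjusted p = 0.00028). CLDN1 and CLDN3 had effects of opposite sign in L191A and WT cells (1.98 and −0.62 for CLDN1, 0.40 and −0.76 for CLDN3), of which only the CLDN1 effect in L191A cells was called with 18 libraries. Over the alternatives, the limma adjusted p of the difference between L191A and WT cells ran to 0.20 for CLDN3 and to 0.99 for CLDN4. For CLDN6 it ran to 0.14, with no call under median-ratio scaling, quantile normalization or the lower pseudocount. For CLDN1, the adjusted p of the difference between L191A and empty-vector cells ran to 0.097. Both skewed libraries enter the contrast of L191A with WT cells, where the median of all genes was 0.79 with 18 libraries and 0.28 with 16.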

How the results depend on the processing

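Of 2400 member values recomputed, 2219 kept their side of the threshold, 93 passed it newly and 88 missed it newly. No called value changed sign, and 53 values that were called in neither fit did. The count of members called is 3 for sgPOU2F3 in empty-vector cells and became 5 with only the groups compared, with 16 libraries and with either length correction. In WT cells it is 1 and became 2 with a pseudocount of 5 or the GENCODE length correction, and 3 with median-ratio scaling, quantile normalization, 16 libraries or RefSeq-matched lengths. Under sgPOU2F3, WT against the empty vector (3) became 5 with 16 libraries. L191A against the empty vector (1) became 2 with a pseudocount of 5 or the GENCODE length correction, 3 with either scaling or RefSeq-matched lengths, 4 with only the groups compared and 5 with 16 libraries. L191A against WT (4) became 2 with a mean of at least 5 TPM, which leaves fewer members. Under sgRosa, WT against the empty vector (2) became 1 with that filter, L191A against the empty vector (4) became 2 with only the groups compared or the GENCODE length correction, and L191A against WT (3) became 5 with 16 libraries. For differences of the effect, WT against the empty vector (2) became 4 with only the groups compared or 16 libraries, L191A against the empty vector (2) became 1 with only the groups compared, and L191A against WT (4) became 1 with a pseudocount of 0.1 or either scaling and 2 with a mean of at least 5 TPM, only the groups compared or the GENCODE length correction. The share of all genes called changed too, given here for the 18-library fit, median-ratio scaling and 16 libraries. It was 17.5%, 26.4% and 51.7% for sgPOU2F3 in empty-vector cells, and 6.82%, 12.6% and 36.1% in WT cells. Under sgPOU2F3 it was 20.6%, 30.5% and 43.6% for WT and 3.78%, 8.17% and 22.9% for L191A against the empty vector. For the effect in L191A against WT cells it was 11.7%, 13.1% and 13.2%. The cause was not tested. Leaving out 1 library gave 3 to 5 members for sgPOU2F3 in empty-vector, 0 to 4 in WT and 3 to 4 in L191A cells. Under sgPOU2F3 it gave 2 to 5 for WT and 1 to 3 for L191A against the empty vector and 2 to 5 for L191A against WT. Under sgRosa it gave 2 in every case for WT and 3 to 4 for L191A against the empty vector and 3 to 4 for L191A against WT. Differences of the effect gave 2 to 4, 2 to 4 and 3 to 5. With the replicate number as a block (replicate block), 2 calls among 84 member values were lost, CLDN7 for WT against the empty vector (2 members left) and CLDN3 for L191A against WT (3 left), both under sgPOU2F3. TPM keep no depth, so precision at low levels, such as that of CLDN9, is unknown.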
